A study of Mus musculus with 29 samples.

Results

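The genes Gap43, Slc14a1, Asic3, Lgi2, Ckb, Tubb3, Nlgn2 and Nectin2 were followed in cultured stromal vascular cells of mouse fat. They were taken by symbol from a table of 56953 genes, and all 8 were found. They had been picked as genes of nerve cells and of transport that separated the fat depots, so their depot differences are a description of how they were picked and carry no test. Gap43 and Slc14a1 were high in inguinal and nearly absent from perigonadal cultures. Asic3, Lgi2, Ckb and Nectin2 were higher in perigonadal cultures in every well. Tubb3 and Nlgn2 overlapped between the depots. All members but Gap43 and Slc14a1 were read in every well of both depots, Asic3 near the counting limit in inguinal cultures. The name "depot-restricted" therefore describes Gap43 and Slc14a1 best.

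The cells were crude stromal vascular fraction (SVF), the mixture of adipose stem cells, endothelial and blood-derived cells left when fat tissue is digested and the adipocytes are removed. They came from inguinal white fat (iWAT, subcutaneous) and perigonadal white fat (pgWAT, visceral) of male and female C57BL6/J mice, and every culture grew for 4 days in PM1 medium with 1 nM basic FGF in a 96-well plate. The labels gave 10 libraries of iWAT male, 9 of iWAT female, 4 of pgWAT male and 6 of pgWAT female cells, each from 1 well, and the study's text gives other group sizes for the same total. Bulk Smart-seq3 sequencing, which reads full-length transcripts, gave a total of 315316 to 1102234 counts and 12200 to 15394 detected genes a library. The study describes its wells as technical replicates of 2 independent experiments for pgWAT and of 3 for iWAT, and the labels do not say which well belongs to which experiment or animal, so p-values measure the spread between wells.

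In 5 of the 10 pgWAT libraries the sex-linked transcripts went against the label. The libraries labelled male, replicates 2 and 4, held 24 and 60 counts of Xist with 1 and 0 counts of 4 Y-linked genes. The pgWAT female replicates 1, 2 and 3 held 10, 23 and 26 Y-linked counts with 7, 0 and 0 counts of Xist. None of the 19 iWAT libraries went against its label. The groups below are those of the labels, and the results that rest on the pgWAT sexes are given with and without these 5 libraries. The 6 fibroblast markers, among them Pdgfra, Col1a1 and Fn1, summed to between 6387 and 12199 CPM (counts scaled to the library total, as below) in iWAT and between 11687 and 22688 CPM in pgWAT. Fn1, Col3a1 and Col1a1 made up most of these sums. Lum, of the same list, had a lower mean in pgWAT, at 227 ± 129 CPM against 352 ± 218 CPM in iWAT (SD).

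Each gene has a textbook role. Gap43 is a membrane protein of the growth cone, the moving tip of a growing axon, and Tubb3 is the beta-tubulin used to stain neurons. Slc14a1 is a urea transporter of red blood cells and kidney vessels, and Asic3 is a proton-gated sodium channel of sensory neurons. Lgi2 is a secreted leucine-rich protein of the nervous system, and Nlgn2 is a neuroligin, a postsynaptic adhesion protein of inhibitory synapses. Ckb is the brain-type creatine kinase, which moves phosphate between creatine and ATP in many tissues. Nectin2 is an adhesion protein of cell junctions and a ligand of receptors on lymphocytes. Several of these genes are known outside the nervous system, and a transcript in a culture of fibroblast-like cells is not by itself a sign of nerve cells.

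Because 4 members were higher in pgWAT in all 10 wells, the 250 bases before the start of each of these genes are shown, from RefSeq on the GRCm38.p6 build. Capitals mark GGGCGG, the core of a GC box, on either strand.
Asic3, chr5:24413201-24413450, plus strand: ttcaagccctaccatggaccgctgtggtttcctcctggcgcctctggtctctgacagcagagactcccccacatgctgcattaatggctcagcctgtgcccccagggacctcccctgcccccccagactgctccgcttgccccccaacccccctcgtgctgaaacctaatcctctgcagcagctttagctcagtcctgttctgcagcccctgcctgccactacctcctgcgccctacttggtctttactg
Lgi2, chr5:52566307-52566556, minus strand: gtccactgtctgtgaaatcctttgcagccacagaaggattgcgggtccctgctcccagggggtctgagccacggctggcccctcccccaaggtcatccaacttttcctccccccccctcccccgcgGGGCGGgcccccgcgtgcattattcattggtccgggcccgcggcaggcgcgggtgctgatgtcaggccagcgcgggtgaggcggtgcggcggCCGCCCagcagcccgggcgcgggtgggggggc
Ckb, chr12:111672339-111672588, minus strand: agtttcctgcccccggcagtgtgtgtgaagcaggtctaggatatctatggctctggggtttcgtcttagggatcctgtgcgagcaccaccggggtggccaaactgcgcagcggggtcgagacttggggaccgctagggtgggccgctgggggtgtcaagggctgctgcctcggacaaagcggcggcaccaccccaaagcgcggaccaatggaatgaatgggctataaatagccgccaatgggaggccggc
Nectin2, chr7:19749574-19749823, minus strand: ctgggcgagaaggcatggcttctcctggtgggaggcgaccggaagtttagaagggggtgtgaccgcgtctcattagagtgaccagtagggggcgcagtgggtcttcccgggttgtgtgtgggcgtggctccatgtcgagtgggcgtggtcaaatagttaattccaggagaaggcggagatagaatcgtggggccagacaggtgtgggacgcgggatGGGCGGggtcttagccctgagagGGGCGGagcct
Of these 4 stretches, Lgi2 and Nectin2 held 2 matches to GGGCGG each, and Asic3 and Ckb held 0. Ckb held 1 match to TATAAA and 2 to CCAAT, Lgi2 held 1 to CCAAT, and Asic3 and Nectin2 held none of either. Over 27025 promoter stretches of the same length, GGGCGG was present in 32.9%, TATAAA in 13.0% and CCAAT in 34.5% on either strand, and none of these motifs contains another. The 4 stretches had 61.6%, 72.4%, 62.8% and 62.0% G and C bases in the order shown, against a median of 52% over all stretches. No 1 of these 3 motifs was found in all 4 stretches.

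Levels are in CPM, the counts of a gene scaled to a common library total with TMM factors, which correct for differences in composition between libraries. At these depths 3 counts correspond to between 2.72 and 9.51 CPM in a library. In bulk RNA, fewer cells of a type and less RNA per cell cannot be told apart.

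**Figure D1:**
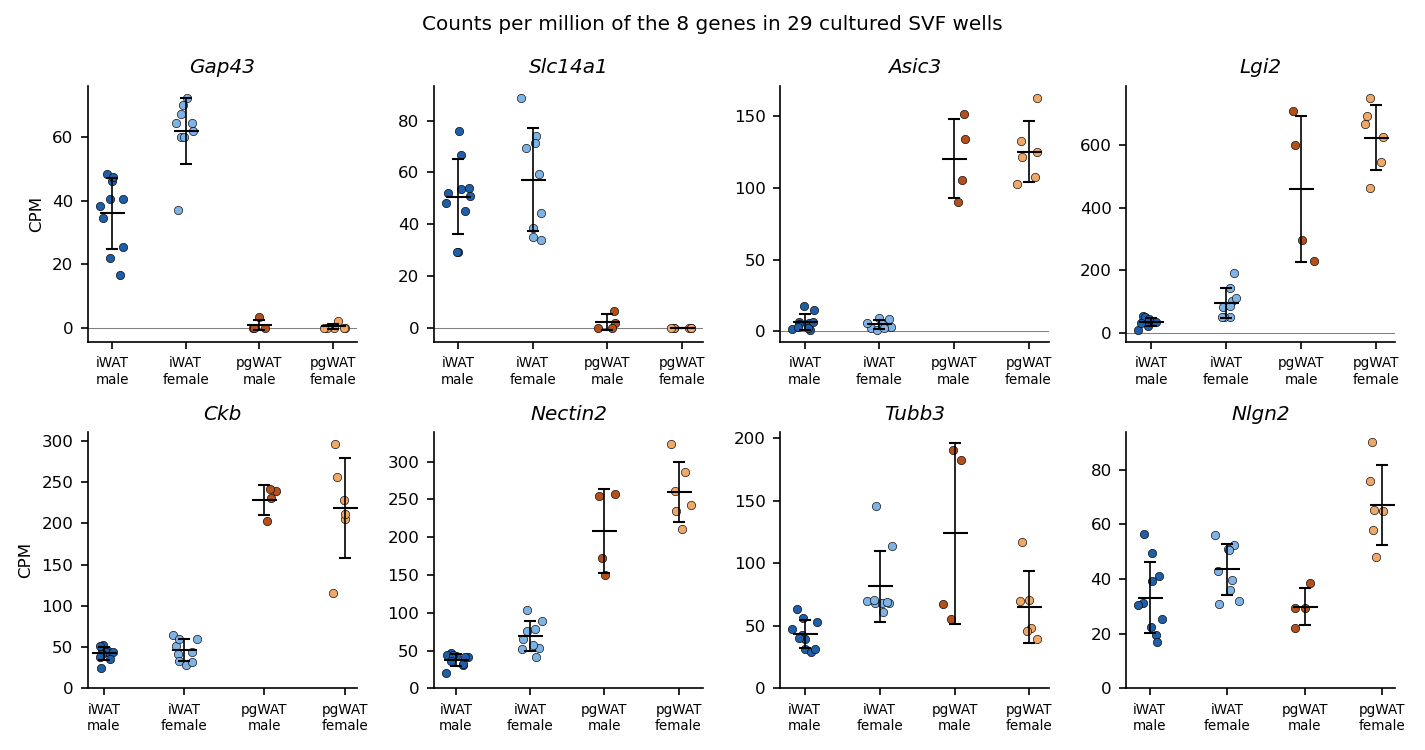
CPM of the 8 genes in each of the 29 wells (points), by depot and labelled sex, with the mean and SD of each group (bars); each panel has its own linear axis. The wells of the depots lie apart for Gap43, Slc14a1, Asic3, Lgi2, Ckb and Nectin2, and overlap for Tubb3 and Nlgn2.

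Gap43 was read in all 19 iWAT libraries and in 2 of the 10 pgWAT libraries. In iWAT male wells it ranged from 16.6 to 48.4 CPM with a median of 39.5, and in iWAT female wells from 37.0 to 72.6 CPM with a median of 64.4. In pgWAT, female replicate 3 held 1 count, male replicate 4 held 3 counts and the other 8 libraries held 0. The summed counts were 636 in iWAT and 4 in pgWAT, a ratio per scaled total of 71.7 with an exact 95% interval of 27.8 to 264, which covers counting error only. The lowest iWAT well, at 16.6 CPM, was still above the highest pgWAT well, at 3.21 CPM.

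Slc14a1 followed the same split. It ranged from 29.3 to 76.0 CPM (median 51.5) in iWAT male and from 34.0 to 88.9 CPM (median 59.2) in iWAT female wells. In pgWAT it was at 0 in all 6 female libraries and in male replicates 1 and 3, with 1 count in male replicate 2 and 6 counts in male replicate 4. The last of these is also the library with the most Gap43 counts in pgWAT, and both libraries with Slc14a1 are among the 5 whose sex-linked transcripts went against the label. The summed counts were 683 in iWAT and 7 in pgWAT, a ratio of 44.0 with an interval of 21.2 to 110. Without those 5 libraries, neither Gap43 nor Slc14a1 had a count in the remaining 5 pgWAT libraries.

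Asic3 had the widest split in the other direction. It was between 0.996 and 17.6 CPM in iWAT male wells (median 5.42) and between 1.13 and 9.53 CPM in iWAT female wells (median 4.96), which is 1 to 10 counts a library. The pgWAT male replicates 1 to 4 held 134, 105, 151 and 89.9 CPM, and the pgWAT female wells ran from 102 to 163 CPM with a median of 123. The mean was 5.62 ± 4.47 CPM (SD, n = 19) in iWAT and 123 ± 22.7 CPM (n = 10) in pgWAT, 21.9 times as high. The channel was read in every library, near the counting limit in iWAT.

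Lgi2 had the largest spread of the 8 in CPM. In iWAT male wells it ranged from 10.4 to 55.3 CPM (median 38.1), and in iWAT female wells from 50.7 to 193 CPM (median 85.8). The pgWAT male replicates 1 to 4 held 297, 707, 229 and 600 CPM, and the female wells ran from 462 to 749 CPM with a median of 644. The mean was 65.7 ± 45.5 CPM in iWAT and 557 ± 176 CPM in pgWAT, 8.47 times as high. The pgWAT male wells fell into a low pair, replicates 1 and 3, and a high pair, and the high pair are wells whose sex-linked transcripts went against the label.

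Ckb was the most even of the 8 within iWAT, by its SD relative to its mean. It lay between 24.7 and 52.3 CPM (median 43.8) in iWAT male and between 28.4 and 64.7 CPM (median 44.4) in iWAT female wells. In pgWAT male replicates 1 to 4 it was 231, 202, 239 and 242 CPM, and in the female wells it was between 115 and 296 CPM with a median of 219.6 CPM. The mean was 44.1 ± 10.7 CPM in iWAT and 223 ± 46.8 CPM in pgWAT. Of its 31-base words, 15.6% occur elsewhere in the annotated transcripts, with 14.7% in the pseudogene Gm12892, which had no counts here.

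Nectin2 was between 20.3 and 46.9 CPM (median 41.0) in iWAT male and between 41.8 and 103 CPM (median 65.5) in iWAT female wells. The pgWAT male replicates 1 to 4 held 149, 254, 172 and 257 CPM, and the pgWAT female wells ranged from 210 to 323 CPM with a median of 252. Replicates 1 and 3 were again the low pair. The means were 52.4 ± 21.4 CPM in iWAT and 239 ± 51.4 CPM in pgWAT, a ratio of 4.56.

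Tubb3 and Nlgn2 were less clear-cut. Tubb3 ranged from 29.1 to 63.4 CPM (median 41.3) in iWAT male and from 61.1 to 146 CPM (median 69.4) in iWAT female wells. The pgWAT male replicates 1 to 4 held 182, 67.4, 190 and 55.7 CPM, and the female wells lay between 39.0 and 117 CPM with a median of 59.2. Only the pgWAT male replicates 1 and 3 were above every iWAT well. The means were 61.5 ± 28.5 CPM in iWAT and 88.7 ± 55.8 CPM in pgWAT, with the SD in pgWAT larger than the difference.

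Nlgn2 was between 16.9 and 56.4 CPM (median 30.8) in iWAT male and between 30.9 and 56.0 CPM (median 43) in iWAT female wells. In pgWAT male replicates 1 to 4 it was 29.5, 29.4, 22.2 and 38.5 CPM, inside the iWAT range, and in pgWAT female wells it was between 48.0 and 90.0 CPM with a median of 65.1. The mean was 38.1 ± 12.4 CPM in iWAT and 52.2 ± 22.4 CPM in pgWAT. In all, 5 of the 10 pgWAT wells were above every iWAT well.

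On the log2 scale of the fit over all libraries, the difference pgWAT minus iWAT was 4.39 (SE 0.214) for Asic3, 3.15 (SE 0.194) for Lgi2, 2.35 (SE 0.129) for Ckb and 2.19 (SE 0.123) for Nectin2. For Tubb3 it was 0.61 (SE 0.191) and for Nlgn2 0.23 (SE 0.165), while Gap43 stood at -5.84 and Slc14a1 at -6.22, values that rest on 4 and 7 counts in pgWAT. The depots did not overlap for 6 of the 8 genes, and the share of all genes without overlap was not computed. As background, 38.1% of the 8853 genes tested were called between depots, and since the members were picked on this contrast nothing is read from their count.

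**Figure D2:**
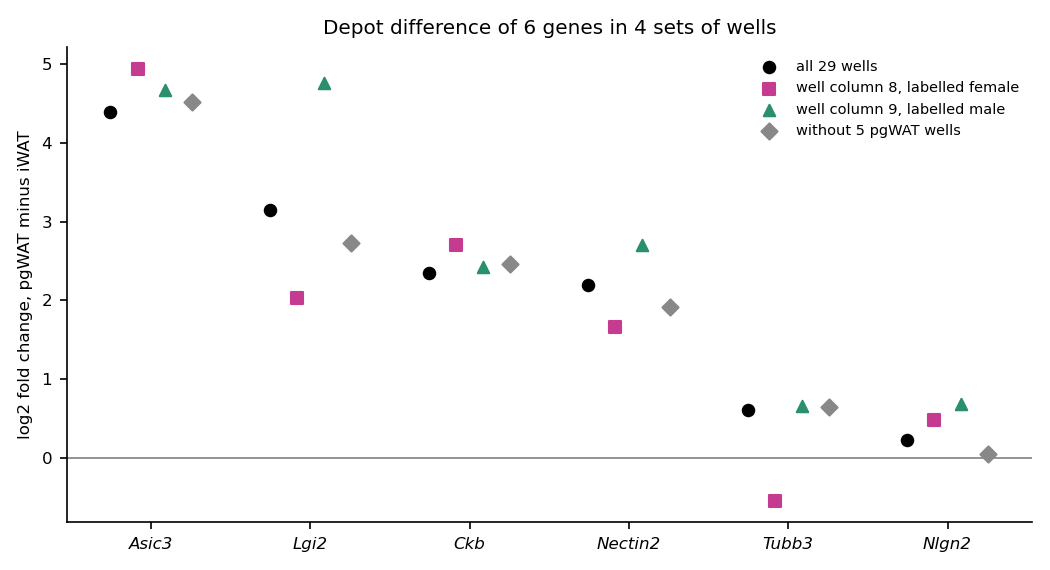
Log2 fold change between depots, pgWAT minus iWAT, for the 6 genes with counts in every pgWAT library, in all 29 wells, in the female-labelled wells of plate column 8, in the male-labelled wells of plate column 9, and without the 5 pgWAT wells whose sex-linked transcripts went against the label. Asic3, Lgi2, Ckb and Nectin2 are at 1.66 or above in all 4 sets, and Tubb3 is at -0.55 in column 8 and between 0.61 and 0.66 in the others.

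The label of each library gives a position on the plate used for library preparation, whose row letters run to P, so it does not tell where a culture grew. The depots and sexes are spread unevenly over 4 columns of that plate. Within column 8, which holds 3 iWAT and 3 pgWAT wells labelled female, the depot difference was 4.94 for Asic3, 2.7 for Ckb, 2.03 for Lgi2 and 1.66 for Nectin2. Within column 9, with 3 iWAT and 2 pgWAT wells labelled male, it was 4.67 for Asic3, 4.75 for Lgi2, 2.42 for Ckb and 2.71 for Nectin2. Gap43 and Slc14a1 were at -3.49 and -3.48 in column 9, where pgWAT male replicate 4 holds most of their pgWAT counts, and at -7.16 and -7.14 over all columns without that library. Both pgWAT wells of column 9 are among the 5 that went against their label. Lgi2 thus differed most between the columns, and Tubb3 turned from 0.66 in column 9 to -0.55 in column 8.

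Levels of different genes can be compared only per length of transcript. With CPM divided by the length of the longest annotated transcript, the order in iWAT was Gap43 (34.1 ± 12 CPM per kb), Tubb3 (32.9 ± 15.3), Nectin2 (19.2 ± 7.82), Ckb (15.5 ± 3.79), Slc14a1 (14.7 ± 4.68), Lgi2 (10.2 ± 7.04), Nlgn2 (6.84 ± 2.22) and Asic3 (2.54 ± 2.02). Neighbours in this order differed by less than the larger of their SDs, apart from Nlgn2 and Asic3. In pgWAT the order was Nectin2 (87.4 ± 18.8), Lgi2 (86.2 ± 27.3), Ckb (78.4 ± 16.5), Asic3 (55.7 ± 10.3), Tubb3 (47.5 ± 29.9), Nlgn2 (9.37 ± 4.01), Gap43 (0.379 ± 0.818) and Slc14a1 (0.222 ± 0.558). Here Ckb and Asic3, Tubb3 and Nlgn2, and Nlgn2 and Gap43 differed by more than the larger SD, and the other neighbours by less. Asic3, last in iWAT, stood directly below Ckb in pgWAT. The length chosen matters for Ckb, which came first in pgWAT at 151 ± 31.8 CPM per kb when its longest protein-coding transcript, of 1.47 kb, replaced the longest of 2.84 kb. With the median transcript length the iWAT order changed too, with Ckb at 46.8, Tubb3 at 46.5 and Gap43 at 44.4 CPM per kb.

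**Figure D3:**
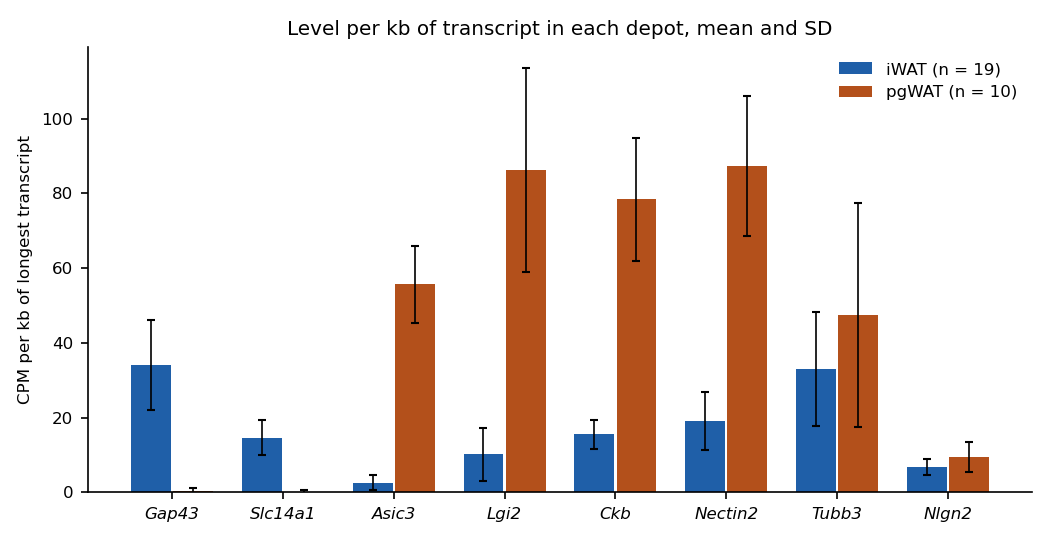
Mean CPM per kb of longest transcript in iWAT (n = 19) and pgWAT (n = 10), with the SD over wells as error bars, on a linear axis from 0. On this length Gap43 leads in iWAT at 34.1 and is at 0.379 in pgWAT, and Nectin2, Lgi2 and Ckb lead in pgWAT between 78.4 and 87.4.

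The labelled sexes were compared within each depot by edgeR's quasi-likelihood test over all 8853 genes, with Benjamini-Hochberg adjustment (false discovery rate, FDR, called below 0.05). In iWAT, 4 of the 8 members were lower in male than in female wells, and the other 4 were not called. Over all genes tested 3.22% were called in either direction and 2.13% as lower in male. Lgi2 fell by 1.41 on the log2 scale (SE 0.263, edgeR FDR 0.00161), from 97.4 ± 48.0 CPM in female (n = 9) to 37.2 ± 13.2 CPM in male wells (n = 10), and 8 of the 10 male wells were below every female well. Nectin2 fell by 0.83 (SE 0.166, FDR 0.00319) from 68.7 ± 19.8 to 37.8 ± 7.99 CPM. In this comparison the members with lower male values came from both depot directions, Lgi2 and Nectin2 from the pgWAT-high and Gap43 from the iWAT-high members.

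Gap43, the growth-cone protein, was lower in male wells by -0.80 (SE 0.191, edgeR FDR 0.0132), at 36 ± 11.2 CPM against 62.1 ± 10.3 CPM. Tubb3 was lower by -0.89 (SE 0.232, edgeR FDR 0.0249), at 43.4 ± 11.5 CPM against 81.6 ± 28.6 CPM, with 9 of the 10 male wells below every female well. All 10 male wells lay below the female mean for each of the 4 genes, and the ranges of the sexes overlapped for each. The 2 female wells with the most carried part of the Tubb3 spread, with 146 CPM in replicate 9 and 114 CPM in replicate 3 against 61.1 to 70.3 CPM in the other 7. Without replicate 9 the FDR of Tubb3 was 0.0582.

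The other members differed by less. Nlgn2 had a log2 difference of -0.37 (SE 0.191, edgeR FDR 0.347), Slc14a1 -0.18 (SE 0.224, FDR 0.755), Ckb -0.12 (SE 0.175, FDR 0.814) and Asic3 0.25 (SE 0.403, FDR 0.833). For Ckb the 95% interval ran from -0.46 to 0.23, and for Asic3, which had at most 10 counts in any iWAT library, from -0.54 to 1.04.

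The plate column touches this comparison. Column 7 is the only column with several iWAT wells of both sexes, 7 male and 4 female. In it alone the log2 difference was -0.66 for Gap43 (edgeR FDR 0.0509), -0.66 for Lgi2 (FDR 0.0832), -0.64 for Tubb3 (FDR 0.0672) and -0.51 for Nectin2 (FDR 0.201), so that none of the 4 was called, against 3.05% of all genes tested there, and every one kept its direction. For Lgi2, the female wells were between 50.7 and 85.8 CPM in column 7 and between 112 and 193 CPM in column 8. With the column as a factor beside the groups, all 4 were called, with FDRs of 0.0446, 0.0301, 0.0499 and 0.00775 in the same order, against 5.6% of all genes.

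Markers of other cells moved with the iWAT sexes. The 8 mammary and other epithelial markers summed to between 0 and 8.31 CPM in male and between 46.4 and 2337 CPM in female wells, and all 4 of those tested, Krt8, Krt14, Krt18 and Cldn4, were lower in male wells. Of the 3 mural cell markers tested, from a list of 8, Acta2 and Tagln were lower in male wells. Mylk was not called, at 15.4 CPM in male and 10.5 CPM in female wells. Of those too low to test, Rgs5, Kcnj8, Abcc9 and Higd1b had higher means in male wells and Myh11 a lower one. The list sums, mostly Acta2 and Tagln, were 616 to 859 CPM in male and 848 to 3543 CPM in female wells. The epithelial sum of 2337 CPM and the mural sum of 3543 CPM both came from female replicate 9. The female medians of these sums were 181 and 1192 CPM. Of the 6 fibroblast markers, Col1a1 and Lum were lower in male wells, with list sums of 6387 to 10373 CPM and 7829 to 12199 CPM. Of the 4 macrophage markers tested, Csf1r was higher in male wells, with list sums of 196 to 306 CPM in male and 91.6 to 171 CPM in female wells. Their part in the values of the 4 members was not tested.

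**Figure D4:**
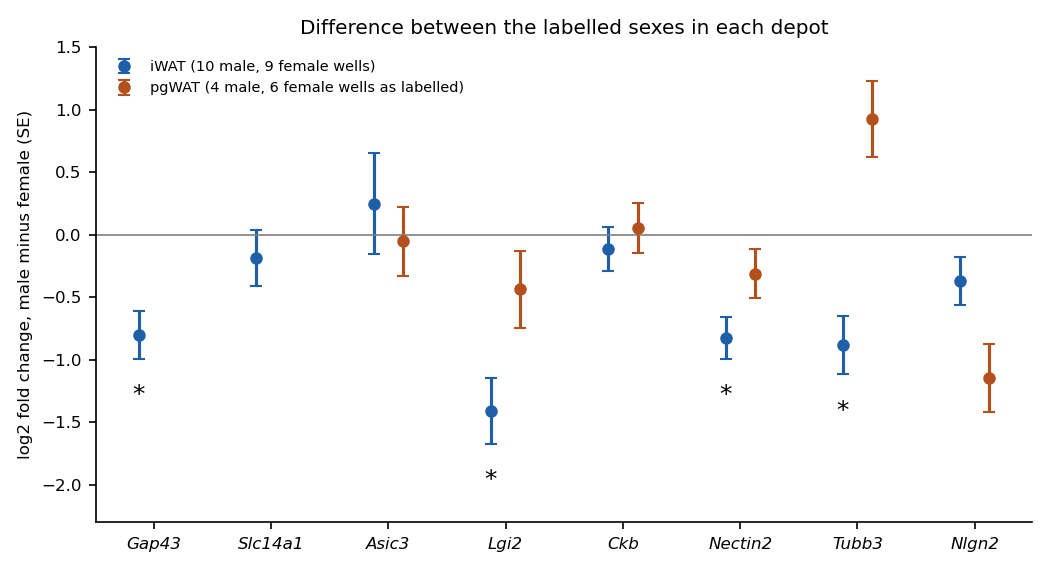
Log2 fold change, male minus female as labelled, with its SE, in iWAT (10 and 9 wells) and in pgWAT (4 and 6 wells). Stars mark an edgeR FDR below 0.05, which Gap43, Lgi2, Nectin2 and Tubb3 reached in iWAT and none reached in pgWAT. Gap43 and Slc14a1 are left out of pgWAT, where they held 4 and 7 counts.

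In pgWAT, none of the 8 members was called between the labelled sexes by edgeR, against 0.0113% of all genes tested (1 gene), while Nlgn2, Tubb3 and Slc14a1, the last on 7 counts, had an unadjusted p under 0.05, as did 739 of the 8853 genes tested. DESeq2 called 1 member, Nlgn2, against 0.192% of all genes, and limma-voom called 0 against 0.0678%. Nlgn2, the neuroligin, had the smallest p: the 4 male wells held 22.2 to 38.5 CPM and the 6 female wells 48.0 to 90.0 CPM, with no overlap, a log2 difference of -1.15 (SE 0.270) and an edgeR FDR of 0.156. Its values in the wells against their label were 29.4 and 38.5 CPM in male replicates 2 and 4. They were 48.0, 90.0 and 75.9 CPM in female replicates 1 to 3. The split over all 10 wells thus followed the labels and not the sex-linked transcripts. Tubb3 had a difference of 0.92 (SE 0.305, FDR 0.336), Lgi2 -0.44 (SE 0.308, FDR 0.742) and Nectin2 -0.31 (SE 0.195, FDR 0.711). Ckb at 0.05 (SE 0.200) and Asic3 at -0.05 (SE 0.273) had intervals of -0.34 to 0.45 and -0.59 to 0.48. With the well column as a factor, edgeR called Tubb3 (1.40, FDR 0.0481) and not Nlgn2 (FDR 0.224), against 0.655% of all genes, and Lgi2 was at -0.02. Slc14a1 and Gap43, with 7 and 4 counts in all of pgWAT, allow no fold between the sexes.

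Leaving out the 5 libraries that went against their label changed this comparison. With 2 male and 3 female wells left, Tubb3 was higher in male wells by 2.01 (edgeR FDR 1.7e-05) and Nlgn2 was lower, at -1.31 (FDR 0.0433). Lgi2 was at -1.26 (FDR 0.0562), Nectin2 at -0.58 (FDR 0.235), Asic3 at 0.13 and Ckb at -0.16. The values behind this are 182 and 190 CPM of Tubb3 in male replicates 1 and 3 against 39.0 to 48.4 CPM in female replicates 4 to 6. Over all genes, 536 of the 9516 tested (5.63%) were called in this smaller set. The 3 female wells and male replicate 1 stood in plate column 8, and within it the log2 difference was 2.00 for Tubb3 and -1.06 for Lgi2, values that rest on a single male well and are given without a test.

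**Figure D5:**
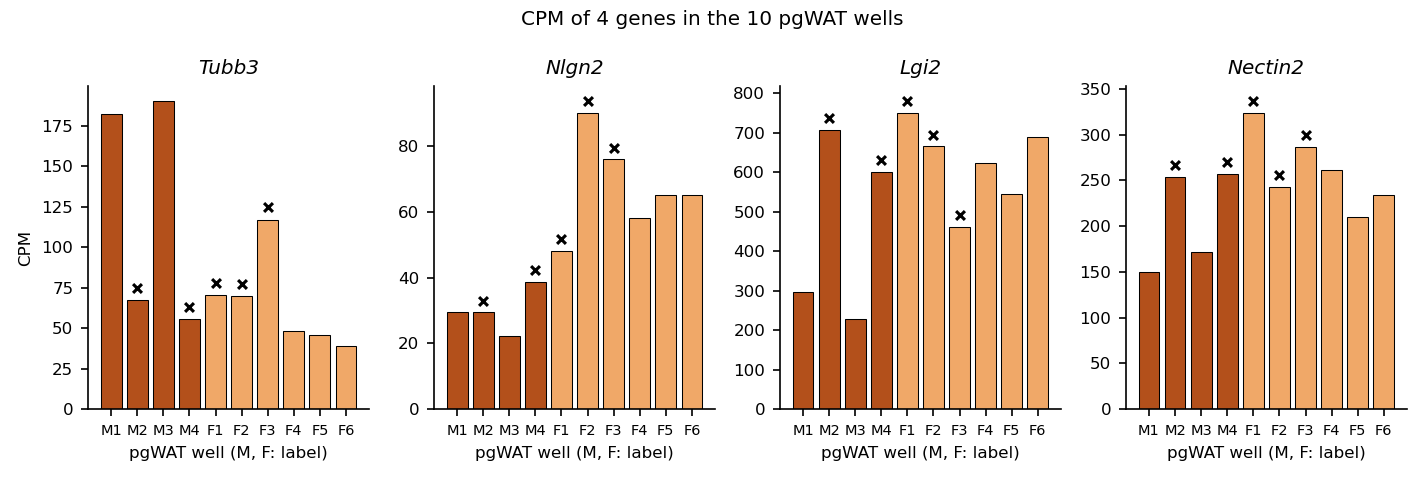
CPM of Tubb3, Nlgn2, Lgi2 and Nectin2 in the 10 pgWAT wells, male replicates M1 to M4 and female replicates F1 to F6 as labelled; crosses mark the 5 wells whose sex-linked transcripts went against the label. M1 and M3 are the highest in Tubb3 (182 and 190 CPM) and the lowest in Lgi2 and Nectin2, and the 4 male-labelled wells are the lowest in Nlgn2.

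The difference between depots in the labelled sex effect was tested as an interaction. Tubb3 was the only member called, at 1.81 (SE 0.382, edgeR FDR 0.0340), against 0.181% of all genes tested (16 genes). Its male minus female difference was -0.89 in iWAT and 0.92 in pgWAT. The call was lost when any one of 10 libraries was left out, with an FDR up to 0.113 without pgWAT male replicate 3, and it was 1.2e-06 without the 5 libraries that went against their label. Lgi2 (0.97, FDR 0.470), Nectin2 (0.51, FDR 0.572), Nlgn2 (-0.78, FDR 0.485), Ckb (0.17, FDR 0.915) and Asic3 (-0.30, FDR 0.915) were not called. Without the 5 libraries these were at 0.16, 0.25, -0.93, -0.04 and -0.10 in the same order, none called, against 2.56% of all genes.

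The relatives of the members were taken as 8 lists of 124 genes in all, by family and not by value. Of the 40 that passed the filter on low counts, 10 were higher and 13 lower in pgWAT by edgeR at an FDR below 0.05, a share of 57.5% against 38.1% of all genes. Their median log2 difference was -0.02 and that of all genes tested 0.01. The direction differed from list to list. The tubulins, with 12 genes tested, held 1 of the 10 higher and 9 of the 13 lower genes. In the sodium channel, LGI and creatine lists no tested gene was called. Between the iWAT sexes 5 of the 40 were called, a share of 12.5% against 3.22% of all genes.

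The tubulins, the building blocks of microtubules, were mostly lower in pgWAT: 9 of the 12 tested fell and 1 rose. Tubb4b fell by 0.74, Tubb5 by 0.70 and Tubb2b by 0.69 on the log2 scale (edgeR FDR 1.3e-05, 1.8e-08 and 9.0e-06). In iWAT, Tubb2b was also lower in male wells (-0.57, FDR 0.00645). Tubb4a, a neuronal isotype, was higher by 1.99 (FDR 5.5e-05), at 21.7 ± 17.1 CPM in pgWAT and 5.66 ± 3.33 CPM in iWAT. Tubb3 itself had a ratio of means of 1.44 in favour of pgWAT, which turned within plate column 8. Tubb3 shares 3.26% of its 31-base words with other transcripts, mostly Tubb6, which itself fell by 0.44.

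Of 9 growth-cone and axon-growth genes tested beside Gap43, 4 rose and 2 fell in pgWAT. Fez1, a transport adaptor of axons, fell by 1.67 (SE 0.111, edgeR FDR 3.8e-14), from 177 ± 19.2 to 54.7 ± 15.0 CPM, and Stmn1, a tubulin-binding protein, fell by 0.61. Ncam1, a neural cell adhesion molecule, rose by 1.05, Dpysl3, a collapsin response mediator, by 0.91 and Marcks, a substrate of protein kinase C, by 0.88. Gap43 was at 0.538 ± 1.16 CPM in pgWAT, and none of the 9 relatives tested was near 0 in a depot. The filter removed relatives low in all groups and Gap43 was picked for its depot split, so nothing is read from this. In iWAT, Ncam1 (-1.41, FDR 9.8e-05) and Dpysl3 (-0.69, FDR 0.0346) were lower in male wells, as Gap43 was.

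Beside Slc14a1, 5 genes of urea and water handling were tested. The water channel Aqp8 fell by 4.33 in pgWAT (SE 0.480, edgeR FDR 7.7e-09), from 55.3 ± 43.6 to 2.10 ± 2.42 CPM. Ass1, which makes argininosuccinate in the urea cycle, fell by 1.14, from 268 ± 69.9 to 120 ± 65.5 CPM. Arg1, the enzyme that releases urea from arginine, rose by 2.74 (SE 0.261), from 6.65 ± 6.40 to 29.4 ± 11.5 CPM, and Asl, argininosuccinate lyase, rose by 0.49. Aqp1 was not called (1.12, FDR 0.0606). The other urea transporter, Slc14a2, had 12 counts over all libraries. In iWAT, Aqp8 was higher and Arg1 lower in male wells (1.42, FDR 0.0084; -2.96, FDR 1.6e-05).

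Among the partners of Asic3, Lgi2 and Ckb, no gene that passed the filter was called between depots, and most were too low to test. No other ASIC or epithelial sodium channel passed the filter, and of the 3 stomatin-family genes that did, none was called. Among the LGI list the receptor Adam23 (73.9 ± 23.1 CPM in iWAT, 65.2 ± 39.5 CPM in pgWAT, edgeR FDR 0.470) and Dlg4, the synaptic scaffold PSD-95 (FDR 0.168), were tested and not called, and Lgi1, Lgi3 and Lgi4 had 3, 68 and 93 counts over all libraries. In the creatine list the transporter Slc6a8 (74.0 ± 20.9 and 83.0 ± 29.9 CPM, FDR 0.339) and the synthesis enzyme Gamt (FDR 0.530) were not called, and the muscle and mitochondrial kinases Ckm, Ckmt1 and Ckmt2 had 16, 4 and 0 counts. Ckb, with 1867 counts, was the most abundant creatine kinase by counts.

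Of the synaptic organizers, Ptprf, a receptor phosphatase, rose by 1.23 (FDR 1.3e-05) and Gphn, which encodes gephyrin, the scaffold of inhibitory synapses, by 0.70 (FDR 0.0387) in pgWAT by edgeR. Nlgn1 and Nlgn3 had 1 and 42 counts over all libraries. Among the nectins and nectin-like genes, Pvr, a relative of Nectin2 that binds some of the same lymphocyte receptors, rose by 1.18 (SE 0.215, FDR 4.4e-05), from 41.0 ± 18.4 to 90.1 ± 40.3 CPM. Nectin1 (-0.06, FDR 0.883) and Nectin3 (-0.40, FDR 0.198) were not called.

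Markers of neurons and of Schwann cells, the glia of peripheral nerves, were read in the same libraries. Of 13 neuron markers 3 passed the filter. The neurofilaments Nefl and Nefm were high in iWAT and nearly absent in pgWAT, at 38.6 ± 20.3 and 0.173 ± 0.547 CPM for Nefl and at 20.9 ± 9.31 and 0.737 ± 1.02 CPM for Nefm (edgeR FDR 4.3e-11 and 7.6e-10). Uchl1 went the other way, at 22.1 ± 10.2 and 40.6 ± 15.7 CPM. The defining neuronal genes were at or near 0 in both depots, with 6 counts of Rbfox3, 1 of Syt1, 5 of Elavl3, 3 of Elavl4, 9 of Syp, 22 of Snap25 and 0 of Th over all 29 libraries. The 13 markers summed to between 49.9 and 131 CPM in iWAT and between 19.99 and 74.7 CPM in pgWAT.

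Of the 12 Schwann cell markers 3 passed the filter. Ngfr (3.17, FDR 1.5e-05) and Pmp22 (0.86, FDR 5.8e-08) were higher and Egr2 (-1.94, FDR 9.0e-10) lower in pgWAT by edgeR. Ngfr, a neurotrophin receptor that is not particular to Schwann cells, was at 330.2 ± 297 CPM in pgWAT. Sox10 had 17 counts and Foxd3 1 over all libraries, and the list summed to 266 to 563 CPM in iWAT and 343 to 1194 CPM in pgWAT. Muscle markers were mixed. Of the 3 tested, Des was higher (3.06) and the acetylcholine receptor subunit Chrna1 lower (-3.91) in pgWAT, and Myh3 was not called (edgeR FDR 0.622). Of those too low to test, Ttn, Actn2, Myog and Cdh15 had 40, 37, 33 and 33 counts over all libraries, and Myod1 and Pax7 had 4 and 1. The list summed to 23.5 to 164 CPM in iWAT and 67.7 to 368 CPM in pgWAT.

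Mesothelium is the lining of the visceral cavities. Of 8 mesothelial markers 4 were tested: Upk3b (40.6 ± 15.6 CPM in pgWAT, 0.0452 ± 0.197 CPM in iWAT), Upk1b and Wt1 were higher and Krt19 lower in pgWAT, and the list summed to 1.96 to 104 CPM in iWAT and 59.0 to 189 CPM in pgWAT. Mural, endothelial, macrophage and epithelial lists had 3, 3, 4 and 4 genes tested, of which 3, 1, 2 and 0 were called higher and none lower. The mural genes called were Acta2, Tagln and Mylk. Of the mural genes too low to test, Rgs5 (7.79 CPM in iWAT, 3.73 CPM in pgWAT), Kcnj8, Abcc9 and Higd1b had lower means in pgWAT and Myh11 a higher one. Of the 6 fibroblast markers, all tested, 5 were called higher and Lum was not called (edgeR FDR 0.103). Over all genes tested 20.1% were called higher and 17.9% lower. The mural, endothelial, macrophage and epithelial lists summed to 616 to 3543, 28.6 to 106, 91.6 to 306 and 0 to 2337 CPM in iWAT. In pgWAT they summed to 1340 to 3137, 41.5 to 109, 145 to 905 and 10.4 to 260.4 CPM, in the same order. The part of these cells in the depot values of the members was not tested.

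The genes whose log2 CPM was most like that of each member over all 29 libraries were found among 5278 genes of sufficient level. Pearson's r is given as a measure of likeness with no p, since the wells share depots and experiments and the depots stand apart. For Gap43 the nearest were Crabp1 (r = 0.965), a retinoic acid binding protein, Agtr2 (0.960), an angiotensin receptor, and Slc14a1 (0.956). Slc14a1 was nearest to Gap43, Agtr2 (0.953) and Fez1 (0.952). Crabp1 had a mean of 720.1 CPM in iWAT and 13.5 CPM in pgWAT, and Agtr2 156 and 2.10 CPM.

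Asic3 was nearest to Aldh1a2 (r = 0.926), which makes retinoic acid, Serping1 (0.922) and Adamts5 (0.921). Ckb was nearest to Cxcl16 (0.919), a chemokine, Asic3 (0.915) and Saa3 (0.913), an acute-phase protein. Lgi2 was nearest to Aebp1 (0.956), H2-K1 (0.948) and Cpxm1 (0.938), and Nectin2 to Fads3 (0.949), P4ha2 (0.940) and Sphk1 (0.938). The members that overlapped between depots had lower r with their nearest genes. Since r was taken over both depots, a shared depot split raises it, and nothing is read from this difference. Tubb3 was nearest to Ltbp2 (0.765), Pf4 (0.690) and Cyba (0.680), and Nlgn2 to Cbx6 (0.762), Agrn (0.736) and Tmem9 (0.724).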

How the data were processed

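The table of 29 libraries held expected counts per gene that the authors estimated with Salmon 1.9.0 from Smart-seq3 reads with and without molecular identifiers, on GRCm39, with STAR 2.7.10a for quality control (versions from the submitters' processing notes). Of the values above 0, 85.1% were exactly whole, and all were rounded before testing. Symbols were matched for 91.4% of genes, and those without one held 0.439% of counts. Groups followed the labels. No 2 libraries of a group agreed within sampling noise. edgeR 4.0.16 (R 4.3.3; filterByExpr, TMM, quasi-likelihood F test) was fitted once to the 4 group means and 8853 genes, with depots averaged over the labelled sexes. All 8 members passed the filter, Gap43 and Slc14a1 through iWAT alone. Members and lists were chosen with earlier results of these data known, so the sex calls are not fully independent of that choice. DESeq2 1.42.0, limma 3.58.1, other scalings and filters, and left-out libraries were alternatives. Named genes were all members, up to 3 called genes a direction of each family list, and 3 nearest neighbours a member; the other list genes and markers were named after their values were seen. The precision of a value is set by the 315316 to 1102234 counts of its library. Some items of the lists are not reported here.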

Additional observations from a re-analysis of the deposited data

Results flagged for a closer look

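Among the 32 groups of wells formed by 8 genes and 4 labelled groups, 3 held a well far from the others by a gap rule. Chance flags about 1 in 20 groups where values vary freely. That share does not hold for Gap43 in pgWAT, where all wells but 1 of each labelled sex were at 0. Any count would be flagged there, and Slc14a1 in pgWAT female wells, at 0 throughout, could not be flagged. Gap43 was lowest in iWAT female replicate 9, at 37.0 CPM against 60.1 to 72.6 CPM in the other 8 wells. The same well was the highest iWAT female well in Tubb3. It also held the highest sum of the epithelial markers, 2337 CPM against a median of 181 CPM in iWAT female wells. In pgWAT, the Gap43 values of 2.17 CPM in female replicate 3 (1 count) and 3.21 CPM in male replicate 4 (3 counts) stood apart from wells at 0.

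The labelled sex effect on Tubb3 differed between depots, with an interaction of 1.81 on the log2 scale (edgeR FDR 0.0340).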

How the results depend on the processing

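No paired analysis was possible because the labels carry no replicate numbers that pair the wells. The cause of the changes below was not tested. For all genes between depots, 3371 calls became 336 with a fold above 2, 1348 in plate column 8 alone and 1953 in column 9 alone, and 3020 to 3380 with a library left out; the family lists' 23 became 4 with a fold above 2 and 21 to 24. The 4 members called between the iWAT sexes became 0 with a fold above 2 and in column 7 alone. They also became 0 without the iWAT wells of columns 8 and 10, a set chosen after seeing the data. Of all genes, 0.158%, 3.05% and 1.27% were called in these settings, in the same order. With a library left out, 3 to 4 members were called. In pgWAT, 0 became 1 with no filter or DESeq2 (Nlgn2), against 0.223% and 0.192% of all genes. It became 1 with column as a factor (Tubb3), against 0.655%, and 2 without the libraries against their label (Tubb3, Nlgn2), against 5.63%. No count of calls is given for column 8 alone, which holds a single pgWAT male well. The interaction's 1 became 0 with voom, a fold above 2 or the iWAT wells of columns 8 and 10 left out. Of all genes, 0.0226%, 0% and 0.0801% were called in these settings, in the same order. With a library left out it was 0 to 1. The 10 libraries whose removal lost the call were pgWAT male replicates 1 and 3, pgWAT female replicates 2, 4, 5 and 6, iWAT female replicates 3 and 7 and iWAT male replicates 6 and 10. Of 8 members, 3 in iWAT and 5 in pgWAT kept their rank per kb with the median transcript length, and 5 in pgWAT with the longest protein-coding one, chosen after seeing the data. The depot value of Tubb3 turned to -0.55 in column 8. Values that were not called also turned: Asic3 in iWAT (-0.081 with voom, -0.054 without columns 8 and 10, -0.049 to 0.45 with a library left out) and pgWAT (0.13 without the libraries against their label, 0.085 in column 8, -0.19 to 0.052), Ckb in pgWAT (-0.21 with column as a factor, -0.16 and -0.17 in the latter sets, -0.078 to 0.16), and the interaction of Asic3 (0.014 with voom) and Ckb (-0.0038 with column as a factor, -0.037 without the libraries against their label). Depth limits Gap43 and Slc14a1 in pgWAT and Asic3 in iWAT.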
